A study of Mus musculus with 2 samples.

Results

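The scavenger and alternative activation receptors of tumor macrophages were described as a set of 8 genes: Mrc1, Msr1, Marco, Folr2, Lyve1, Clec10a, Clec4n and Retnla. They were matched by gene symbol, and all 8 were present among the 32285 genes of both count tables. Of the 8, 7 encode surface receptors, while Retnla encodes a secreted protein that is grouped with them as a hallmark of alternative activation. Single-cell RNA sequencing on droplets covered live cells sorted from subcutaneous tumors of MC38, a mouse colon carcinoma line, grown in young female mice of the C57BL/6 background. There was 1 library (called a sample here) from Lmo7+/+ (wild-type) hosts and 1 from Lmo7-/- hosts, in which the gene of LMO7, a LIM domain protein with a role in protein ubiquitination, was deleted in all host cells and not in macrophages alone, while the implanted MC38 cells were the same in both. The comparison addressed how these genes are distributed over the macrophages and monocytes of the tumor and whether their levels differ between the hosts. Neither genotype had a replicate library and the number of mice behind each library is not given in the sources used here, so no test between genotypes was possible and all intervals cover counting error only.

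Scavenger receptors are surface proteins that take up modified lipoproteins, bacteria and debris of dying cells, and they let macrophages clear material without antibodies. Alternative activation is the program that interleukin 4 and interleukin 13 induce in mouse macrophages through the transcription factor STAT6, with Retnla, Mrc1 and Clec10a among its classical targets. Folr2 and Lyve1 mark macrophages that reside in healthy tissue, often along blood vessels, and are low in macrophages newly formed from blood monocytes.

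The sequences upstream of Retnla and Mrc1 are shown because Retnla was the member with the largest difference between the libraries and Mrc1 the most widely expressed member of the same program among those with a sequence at hand. Both come from RefSeq promoter windows of the build GRCm38.p6, printed 5′ to 3′ on the strand of the gene and ended before the first annotated transcript. The capitals mark matches to the STAT6 motif TTCNNNNGAA, the C/EBP motif TTGCNNAA and the PU.1 motif GAGGAA, each searched on both strands, so that TTCCTC is GAGGAA read on the other strand. The Retnla stretch is chr16:48842359-48842550 on the plus strand and the Mrc1 stretch is chr2:14229164-14229391 on the plus strand.
Retnla: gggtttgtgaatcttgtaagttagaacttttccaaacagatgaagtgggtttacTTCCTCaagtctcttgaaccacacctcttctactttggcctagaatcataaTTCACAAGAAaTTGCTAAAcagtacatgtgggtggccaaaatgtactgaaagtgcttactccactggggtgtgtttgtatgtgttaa
Mrc1: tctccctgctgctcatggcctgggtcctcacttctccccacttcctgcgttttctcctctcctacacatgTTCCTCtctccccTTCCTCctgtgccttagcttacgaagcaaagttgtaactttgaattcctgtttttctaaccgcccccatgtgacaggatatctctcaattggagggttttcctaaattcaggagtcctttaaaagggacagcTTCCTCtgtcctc
In the Retnla window the STAT6 match TTCACAAGAA lay 145 to 136 bases before the RefSeq start site, 1 base away from the C/EBP match TTGCTAAA at 134 to 127 bases. A STAT6 match occurred in 5.85% and a C/EBP match in 9.56% of 32851 promoter windows of the same length, and both together in 0.609%. The Mrc1 window held 3 PU.1 matches and no STAT6 match, while PU.1 matches occurred in 23.3% of all windows. Windows were at hand for 4 of the 8 members. The other 2, Marco and Folr2, held neither a STAT6 nor a C/EBP match in the 250 bases before their start sites. These matches describe letters and not bound sites.

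The annotation (GENCODE M21, GRCm38) places the members on different chromosomes except for Folr2 and Lyve1. Mrc1 lies at chr2:14229392-14332057 and contains the microRNA gene Mir511 on the same strand, Msr1 at chr8:39581685-39642673, Marco at chr1:120474538-120505024 and Clec4n at chr6:123229843-123247021. Folr2 (chr7:101839988-101857194) and Lyve1 (chr7:110850607-110863239) share chromosome 7, Clec10a lies at chr11:70156197-70170834 and Retnla, the shortest of the genes, at chr16:48842551-48844461. Folr2 overlaps an antisense gene, Gm10602, and a pseudogene, Gm45319, so its counts could include reads of these where strand was not used.

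Filtering left 13542 Lmo7+/+ and 11860 Lmo7-/- cells, with medians of 4536 and 4305 unique molecular identifiers (UMIs, each standing for 1 captured RNA molecule) per cell. Markers named 2992 and 3649 macrophage-like cells, 1189 and 1025 monocyte-like cells and 5 smaller host classes besides the tumor cells, and 3541 cells stayed unnamed. Lmo7 itself had 37 counts (1.36 counts per 1000000, CPM) in the named host classes of the Lmo7+/+ sample and 30 counts (1.12 CPM) in those of the Lmo7-/- sample, so RNA counts did not verify the genotype and the second sample is called by its label. The macrophage-like and monocyte-like cells were clustered again without the 8 members, which gave 8 states. The barcodes of 279 droplets occurred in both libraries, and 1 cell of the state described next carried such a barcode.

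Some members were found across all myeloid states, while most UMIs of Retnla, Lyve1 and Folr2 lay in 1 small state. This state, named Cd209f Cbr2 Fcna after its leading genes, held 67 cells (1.60% of the myeloid cells) in the Lmo7+/+ sample and 72 cells (1.54%) in the Lmo7-/- sample. It expressed 12 of 12 macrophage markers at 50 CPM or more, among them C1qa, Csf1r and Adgre1, and no cell in it was marked as a doublet. Both also held for most other states, the Ly6c2 Chil3 state included. The macrophage markers had served to select the cells, so neither item sets this state apart. Of 5 lymphatic vessel markers, Prox1, Ccl21a and Mmrn1 had no count in it, while the list summed to 25 counts (78.1 CPM) in the Lmo7+/+ sample, from 1 marker, and 7 counts (21.5 CPM) in the Lmo7-/- sample, from Flt4 and Pdpn. T cell markers summed to 7 counts in its Lmo7+/+ cells and 32 in its Lmo7-/- cells, and monocyte markers to 462 and 723 CPM, whose part in the differences below was not tested. The state held 1.39% and 1.44% of the myeloid UMIs, but 96.1% and 98.7% of those of Retnla, 96.3% and 95.3% of those of Lyve1 and 63.7% and 57.6% of those of Folr2. Its shares were smaller for Mrc1 (7.30% and 7.36%), Clec10a (9.11% and 23.6%) and Marco (17.5% and 28.3%), most of whose UMIs lay in other states. In both libraries 6 of the 8 members, all but Msr1 and Clec4n, had their highest level in this state, beside 16.1% of 12004 genes tested whose pooled level was highest there. For Marco in the Lmo7+/+ sample this rests on 10 UMIs in 1 cell. Its highest state in that sample was another one after thinning to 1500 UMIs per cell and at state resolutions 0.8 and 1.2. At resolution 1.2 Retnla was highest in a different state from Lyve1 and Folr2. The leading genes of a state come from the clustering itself and are no finding, whereas the members were not used in it.

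**Figure D1:**
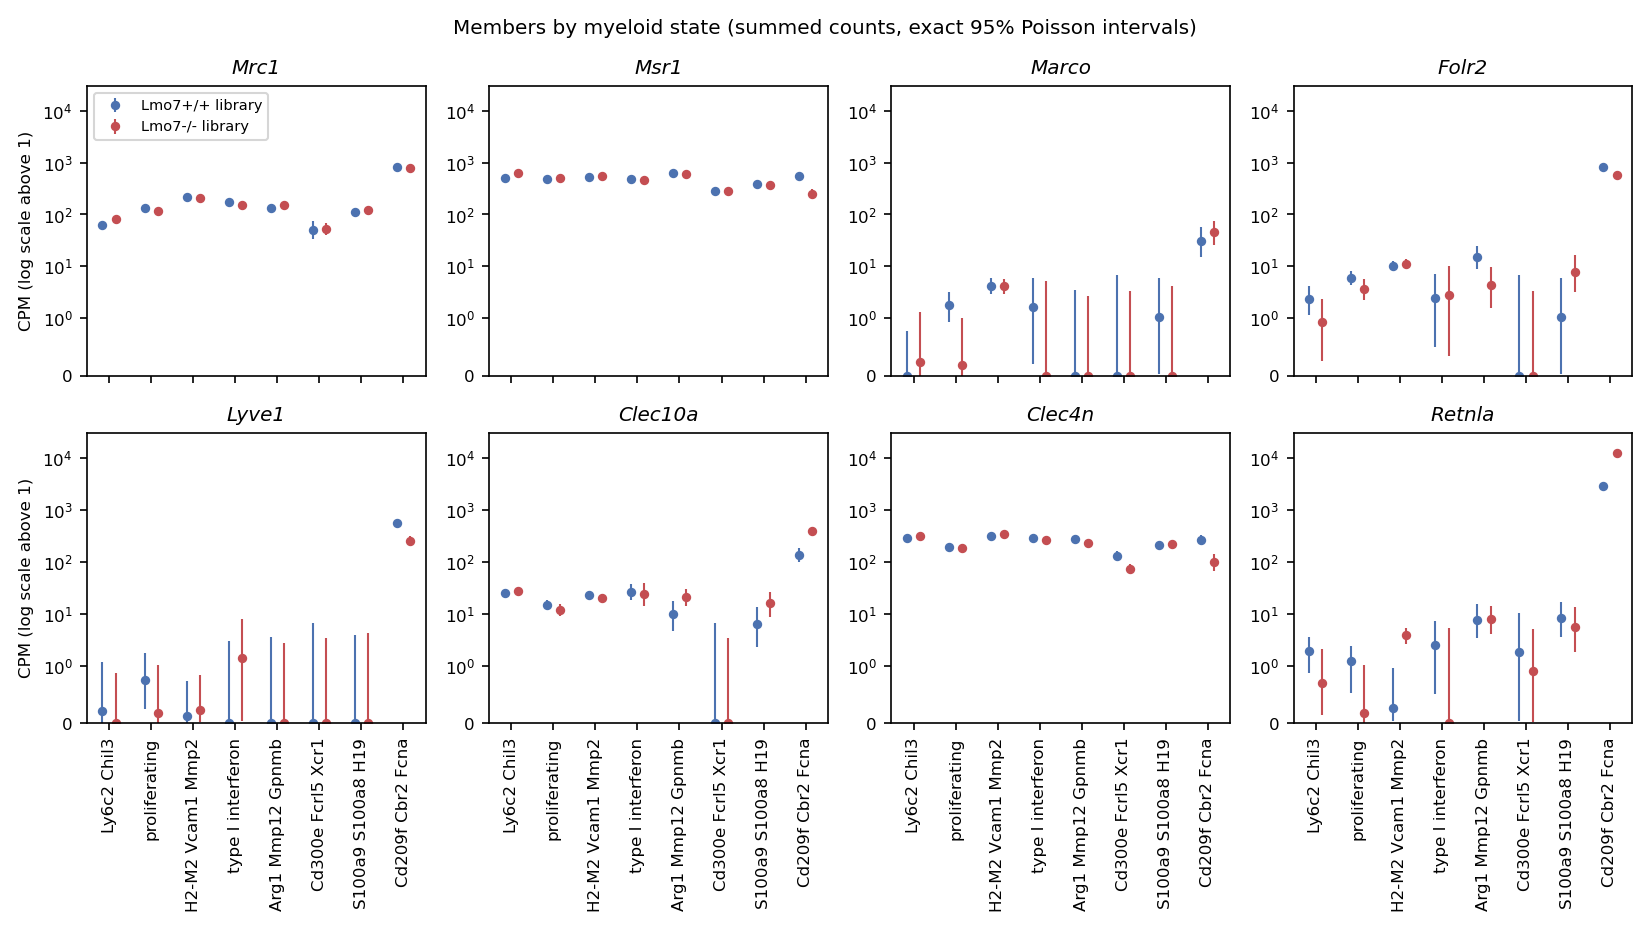
Level of each member in CPM (logarithmic above 1) in the 8 myeloid states, with 1 point per library (blue Lmo7+/+, red Lmo7-/-) and exact 95% Poisson intervals of the summed counts. Msr1 and Clec4n were detected in every state, while Lyve1 and Retnla stood far higher in the Cd209f Cbr2 Fcna state than elsewhere and none of Marco, Folr2, Lyve1 and Clec10a had a count in the Cd300e Fcrl5 Xcr1 state.

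Mrc1 encodes the mannose receptor CD206, an endocytic receptor for mannose-rich glycans and the usual surface marker of alternatively activated macrophages. In macrophage-like cells it stood at 188 CPM in the Lmo7+/+ sample and 178 CPM in the Lmo7-/- sample (log2 ratio -0.08, 95% interval -0.15 to -0.01), so the difference was small. In monocyte-like cells it stood at 49.5 and 64.5 CPM (log2 ratio 0.38, 0.14 to 0.62). By state its order ran from the Cd209f state (806 and 793 CPM) through H2-M2 Vcam1 Mmp2 (216 and 209), type I interferon (177 and 152), Arg1 Mmp12 Gpnmb (133 and 156), proliferating (131 and 116), S100a9 S100a8 H19 (110 and 120) and Ly6c2 Chil3 (61.4 and 80.9) down to Cd300e Fcrl5 Xcr1 (51.1 and 52.7). Pooled over both samples, type I interferon and Arg1 Mmp12 Gpnmb had overlapping intervals, as had proliferating and S100a9 S100a8 H19, and the other neighbors in this order did not. Once each cell was thinned to 1500 UMIs, 22.0% of macrophage-like cells in the Lmo7+/+ sample and 21.7% in the Lmo7-/- sample held an Mrc1 UMI, beside unthinned shares of 48.8% and 41.8% (median depths of 5284 and 4436 UMIs). T and NK cells, which should lack the gene, held one in 0.946% and 0.187% of thinned cells at median depths of 2158 and 2195 UMIs.

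Msr1 encodes the class A scavenger receptor SR-A, which binds acetylated lipoproteins and bacterial products. It was detected at 249 CPM or more in every state and stood at 519 and 512 CPM in macrophage-like cells (log2 ratio -0.02, -0.06 to 0.02) and 460 and 604 CPM in monocyte-like cells (log2 ratio 0.39, 0.31 to 0.47). Its lowest state in the Lmo7+/+ sample was Cd300e Fcrl5 Xcr1 (279 CPM), and that state stood at 288 CPM in the Lmo7-/- sample, where the Cd209f state was lowest at 249 CPM. Its highest state differed between the libraries, Arg1 Mmp12 Gpnmb at 630 CPM in the Lmo7+/+ sample and Ly6c2 Chil3 at 633 CPM in the Lmo7-/- sample, where Arg1 Mmp12 Gpnmb stood at 613 CPM. Thinned monocyte-like cells held an Msr1 UMI in 43.5% (40.5 to 46.5%) of the Lmo7+/+ sample and 57.0% (53.8 to 60.2%) of the Lmo7-/- sample, beside 3.31% and 1.12% of T and NK cells.

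Marco encodes a related class A scavenger receptor of resident macrophages of the lung and lymphoid organs. It was found in the fewest macrophage-like cells of all members, with 55 UMIs in 7 macrophage-like cells of the Lmo7+/+ sample and 53 UMIs in 15 of the Lmo7-/- sample. A single cell of the Lmo7+/+ sample held 31 of its 55 UMIs, and the highest cell of the other library held 14. The levels of 3.18 and 2.93 CPM (log2 ratio -0.12, -0.69 to 0.45) therefore rest on very few cells, and the ratio moved to -1.58 with the strict filter described below and to 2.19 after thinning; the states Arg1 Mmp12 Gpnmb and Cd300e Fcrl5 Xcr1 had no Marco count in either library.

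Folr2, a receptor for folate, and Lyve1, a receptor for hyaluronan, mark resident and perivascular macrophages in many tissues. Folr2 reached 812 and 569 CPM in the Cd209f state, 124-fold and 93.3-fold the level over the other myeloid states, where its highest values were 15.5 CPM in Arg1 Mmp12 Gpnmb of the Lmo7+/+ sample and 11.3 CPM in H2-M2 Vcam1 Mmp2 of the Lmo7-/- sample. Lyve1 reached 568 and 252 CPM in the Cd209f state and had 7 and 4 counts in all other myeloid states together. Outside macrophages Lyve1 was found in endothelial-like cells at 144 and 136 CPM (71 and 56 counts). There, 56 of its 71 counts lay in 7 cells of the Lmo7+/+ sample that carried at least 2 of the lymphatic markers Prox1, Mmrn1 and Ccl21a. In the Lmo7-/- sample 2 cells carried them, and 1 of these held 47 of the 56 counts, so that value rests mostly on a single cell.

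Clec10a encodes a lectin for galactose and N-acetylgalactosamine (CD301), which dendritic cells also carry, and Clec4n encodes Dectin-2, a lectin that recognizes mannans of fungi. Clec10a stood at 21.2 and 24.4 CPM in macrophage-like cells, 20.5 and 23.0 CPM in monocyte-like cells and 50.6 and 47.7 CPM in dendritic-like cells. In the Cd209f state it stood at 137 CPM in the Lmo7+/+ sample and 397 CPM in the Lmo7-/- sample, above the 26.3 and 27.4 CPM of its next highest states. Clec4n was found across the myeloid cells, at 264 and 261 CPM in macrophage-like, 261 and 286 CPM in monocyte-like and 130 CPM in dendritic-like cells of both libraries. It was highest in the H2-M2 Vcam1 Mmp2 state (321 and 338 CPM) and in the Lmo7-/- sample lowest in Cd300e Fcrl5 Xcr1 (73.7 CPM), with the Cd209f state next (98.4 CPM). In the Lmo7+/+ sample the Cd300e state was again lowest (131 CPM), while the Cd209f state stood at 265 CPM.

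Retnla encodes RELMα, a secreted cysteine-rich protein that alternatively activated mouse macrophages release. In macrophage-like cells it stood at 56.4 CPM (975 counts) in the Lmo7+/+ sample and 225 CPM (4070 counts) in the Lmo7-/- sample, a log2 ratio of 1.99 (1.89 to 2.10). Nearly all of these counts, 949 and 4018, lay in the Cd209f state, at 2963 and 12356 CPM. All other macrophage-like cells together held 26 and 52 counts (1.53 and 2.92 CPM), and monocyte-like cells 13 and 2. In the H2-M2 Vcam1 Mmp2 state, the most numerous, 2 counts stood against 33.

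Between the libraries, 2 of the 8 members passed a 1.5-fold difference in macrophage-like cells, Retnla higher and Lyve1 lower in the sample labelled Lmo7-/-. Over all 12004 genes with at least 20 counts in these cells, 3.92% were higher and 6.08% lower by that fold, and the median log2 ratio was -0.10. Another scaling, by TMM factors, raised these ratios by 0.10 and turned the share of calls that were higher from 39.2% to 56.3%, and put Mrc1 (0.02), Msr1 (0.08) and Clec4n (0.08) just above 0. Lyve1 stood at 10.9 CPM (188 counts) against 4.75 CPM (86 counts), a log2 ratio of -1.20 (-1.58 to -0.82). Folr2 stood at 23.0 and 17.7 CPM (log2 ratio -0.38, -0.59 to -0.16), and Clec10a (0.21, 0.00 to 0.41) and Clec4n (-0.02, -0.08 to 0.04) were within the fold. Retnla stood at 1.01 after thinning and at 1.29 as a mean over cells of counts per 10000. Without the Cd209f state, a choice made after the data were seen, Lyve1 was left with 6 and 4 counts and Retnla alone passed the fold (log2 ratio 0.93, 0.23 to 1.67). By state its counts went both ways, with 2 and 33 in H2-M2 Vcam1 Mmp2 but 8 and 1 in proliferating cells. Tumor cells also held 28 Retnla counts in 6505 Lmo7+/+ cells and 34 in 4262 Lmo7-/- cells. The part of such counts in this ratio was not tested. The ratio of Lyve1 in macrophage-like cells changed direction with the filter: it was 0.59 where cells needed 1000 genes, 2000 UMIs and at most 10% mitochondrial counts, and 0.86 where cells with a UMI of a T cell, dendritic or stromal marker were left out. Folr2 stood at 0.02 and 0.20 under these settings.

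In monocyte-like cells none of the 4 members with at least 20 counts passed the fold, against 3.24% higher and 5.78% lower of 10428 genes. All 4 log2 ratios were above 0, with Clec10a at 0.16 (-0.23 to 0.56) and Clec4n at 0.13 (0.03 to 0.24) beside the values of Mrc1 and Msr1 above. Marco, Folr2, Lyve1 and Retnla had under 20 counts there and were not compared.

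**Figure D2:**
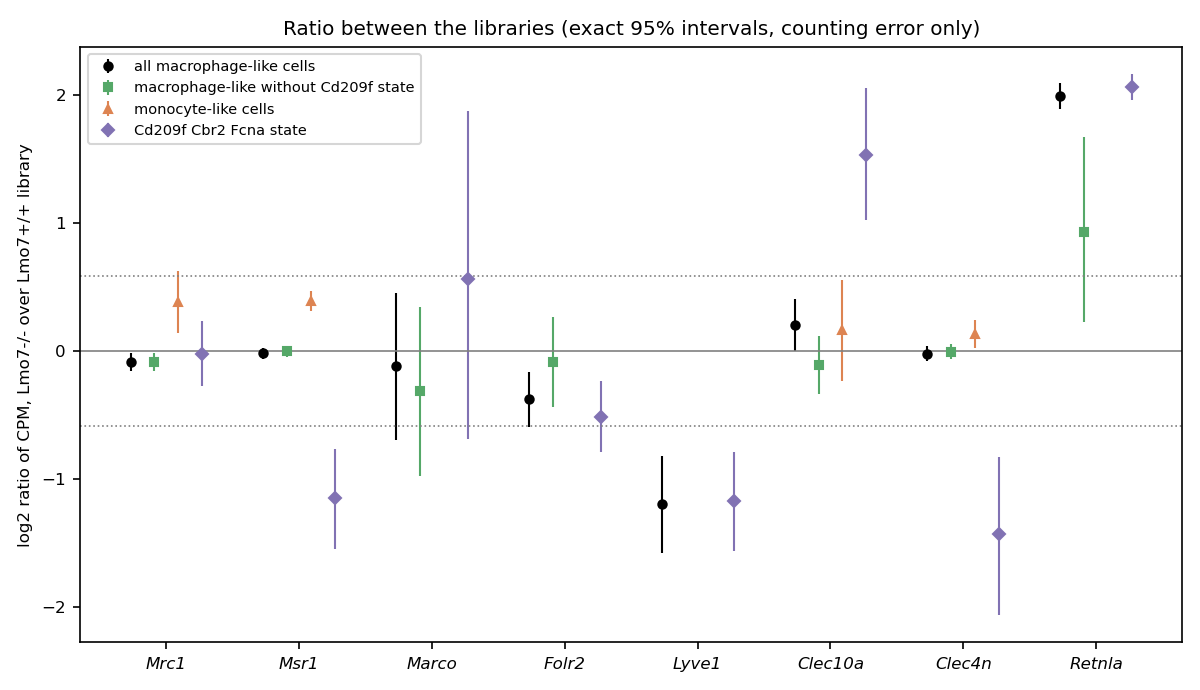
Log2 ratio of CPM, Lmo7-/- over Lmo7+/+ library, of each member with at least 20 counts, in macrophage-like cells with and without the Cd209f state, in monocyte-like cells and in the Cd209f state, with exact 95% intervals of counting error. Dotted lines mark 1.5-fold; Retnla was above it in 3 groups of cells, and Lyve1 was below it in all macrophage-like cells and in the Cd209f state.

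Within the Cd209f state the members went in opposite directions. Retnla (log2 ratio 2.06, 1.96 to 2.16) and Clec10a (1.53, 1.03 to 2.06) were higher in the sample labelled Lmo7-/-, while Msr1 (-1.15, -1.55 to -0.76), Lyve1 (-1.17, -1.57 to -0.79) and Clec4n (-1.43, -2.07 to -0.83) were lower. Of 4510 genes with at least 20 counts in this state, 10.7% were higher and 14.8% lower by 1.5-fold. Folr2 (-0.51, -0.79 to -0.24), Mrc1 (-0.02, -0.28 to 0.23) and Marco (0.56, -0.69 to 1.88) stayed within the fold. After thinning to 1500 UMIs per cell Clec4n no longer passed the fold (-0.52, -1.87 to 0.78), while Msr1 (-0.68, -1.54 to 0.15), Lyve1 (-0.88, -1.62 to -0.16) and Clec10a (1.13, 0.28 to 2.04) did, although the interval of Msr1 spanned 0. Clec4n stood at -0.70 with states at resolution 0.8. Msr1 stood at 553 CPM (177 counts) in the Lmo7+/+ cells of the state and at 249 CPM (81 counts) in its Lmo7-/- cells.

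Retnla was very uneven from cell to cell. In the Lmo7+/+ sample 21 of the 67 cells of the state held a Retnla UMI, and the highest held 242 UMIs and the next 170. The 5 highest cells gave 696 of the 949 counts. In the Lmo7-/- sample 37 of 72 cells held one, the highest with 870 and the next with 731 UMIs, and the 5 highest gave 2481 of 4018 counts. Cells with 50 UMIs or more numbered 7 and 20. With each cell thinned to 1500 UMIs the median cell held 0 Retnla UMIs in both libraries, the highest 77 and 125, and 10 of 58 and 19 of 64 cells held 10 or more. These were 17.2% and 29.7% of the thinned cells. The log2 ratio of the state was 1.10 (0.93 to 1.27) after thinning, so that the difference was smaller once every cell had the same weight.

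Lyve1 was also carried by few cells, 19 in the Lmo7+/+ sample and 20 in the Lmo7-/- sample, with highest values of 39 and 11 UMIs. The 10 highest cells gave 91.2% and 73.2% of its counts in the state. Thinned shares of cells with a Lyve1 UMI, 24.1% (13.9 to 37.2%) and 20.3% (11.3 to 32.2%), overlapped widely, beside unthinned shares of 28.4% and 27.8% and 0 of 423 and 0 of 535 thinned T and NK cells, which allows shares of up to 0.709% and 0.561% at a floor of 3 counts (upper exact limits 0.868% and 0.687%). For Folr2 the thinned shares were 46.6% and 46.9%, for Mrc1 62.1% and 60.9%, and for Retnla 27.6% (16.7 to 40.9%) and 45.3% (32.8 to 58.3%).

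**Figure D3:**
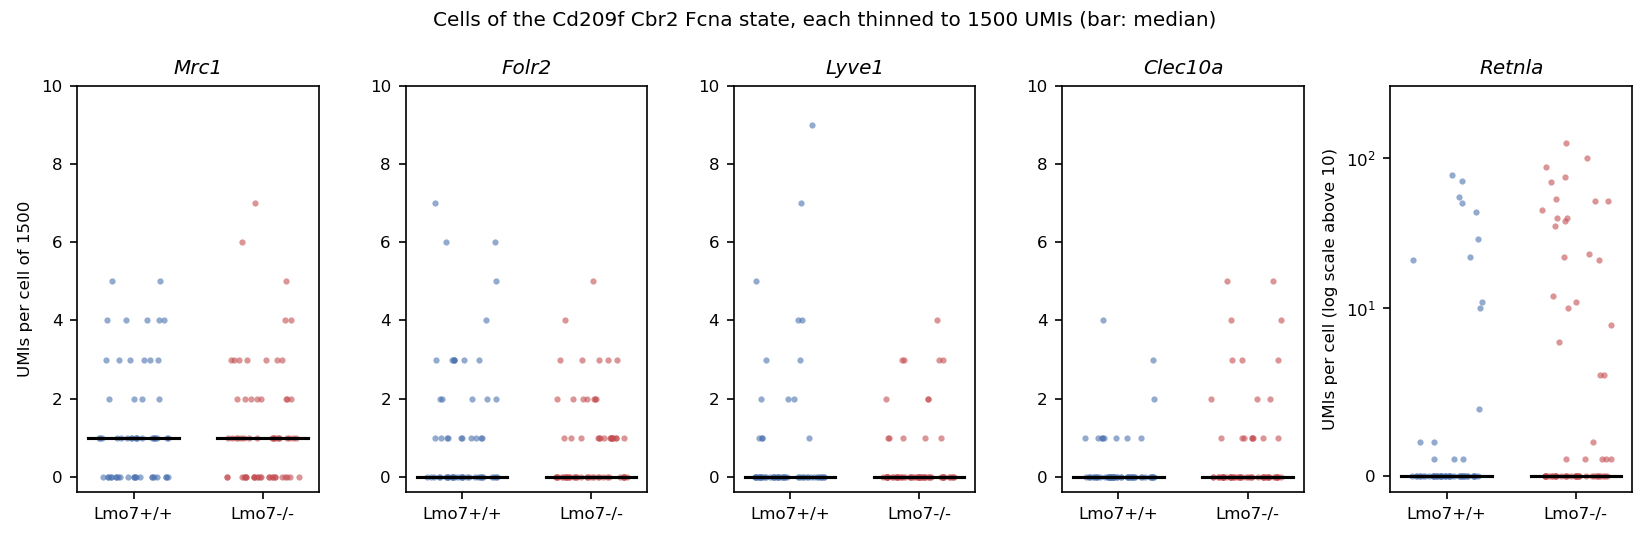
UMIs per cell of 5 members in the Cd209f Cbr2 Fcna state, each cell thinned to 1500 UMIs (58 Lmo7+/+ and 64 Lmo7-/- cells), with 1 point per cell and a bar at the median; the Retnla axis is logarithmic above 10. The median was 1 for Mrc1 and 0 for the other 4 members in both libraries, and Retnla reached 77 and 125 UMIs in its highest cells.

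A finer clustering of the myeloid cells, added after the data were seen, split this state into groups with different members. The group led by Ccl8, Cd209f and Gas6 held 52 Lmo7+/+ and 44 Lmo7-/- cells and carried Mrc1 (937 and 1078 CPM), Folr2 (948 and 916 CPM), Lyve1 (676 and 429 CPM) and Clec10a (153 and 638 CPM). The group led by Dcstamp, Ear2 and Cd2 held 14 and 28 cells and carried most of the Retnla, 528 and 3661 counts (11262 and 27304 CPM), with medians of 6 and 57 UMIs per cell. Lyve1 had 1 and 0 counts in this second group, Marco had none and Folr2 had 4 and 10. Of the genes that name the state, Cd209f had 0 counts in the second group over both samples, Cbr2 had 1 and Fcna 2. Pooled over both samples, macrophage markers were lower in the second group than in the first, with C1qa at 1006 against 2482 CPM, Csf1r at 536 against 1244 CPM and Adgre1 at 149 against 516 CPM. The monocyte receptor gene Ccr2 stood at 746 against 93.7 CPM. Another monocyte marker, Ly6c2, went the other way, with 1 count (5.53 CPM) against 18 counts (39.2 CPM). Itgax, which dendritic cells and some macrophages carry, stood at 547 against 126 CPM. The class II gene H2-Ab1 stood at 11726 against 4499.7 CPM and the fibronectin gene Fn1 at 2023 against 135 CPM. The dendritic marker Flt3 had no count in either group, and Ccl17 and Aldh1a2 were among the leading genes of the second. Its cells were 14 of 66 in the Lmo7+/+ sample and 28 of 72 in the Lmo7-/- sample.

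Within the groups the ratio of Retnla was smaller than in the state as a whole, 0.25 (0.04 to 0.46) in the first and 1.28 (1.15 to 1.41) in the second. The ratio of Clec10a in the first group was 2.06 (1.54 to 2.61), and Lyve1 there was at -0.66 (-1.05 to -0.27). Msr1 (-0.99, -1.44 to -0.56) and Clec4n (-0.96, -1.67 to -0.30) were lower in the sample labelled Lmo7-/- in the first group, whereas Mrc1 (0.20, -0.07 to 0.47) and Folr2 (-0.05, -0.34 to 0.23) were within the fold. Over the whole finer cluster of 103 cells from which this group comes, Clec4n was within the fold (-0.28, -0.84 to 0.26). In the second group Mrc1 was higher in the sample labelled Lmo7-/-, with 6 and 52 counts (128 and 388 CPM, log2 ratio 1.60, 0.38 to 3.11). Msr1 there had 3 and 20 counts (64.0 and 149 CPM, log2 ratio 1.22, -0.53 to 3.61), the opposite direction to the first group with an interval that spanned 0.

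**Figure D4:**
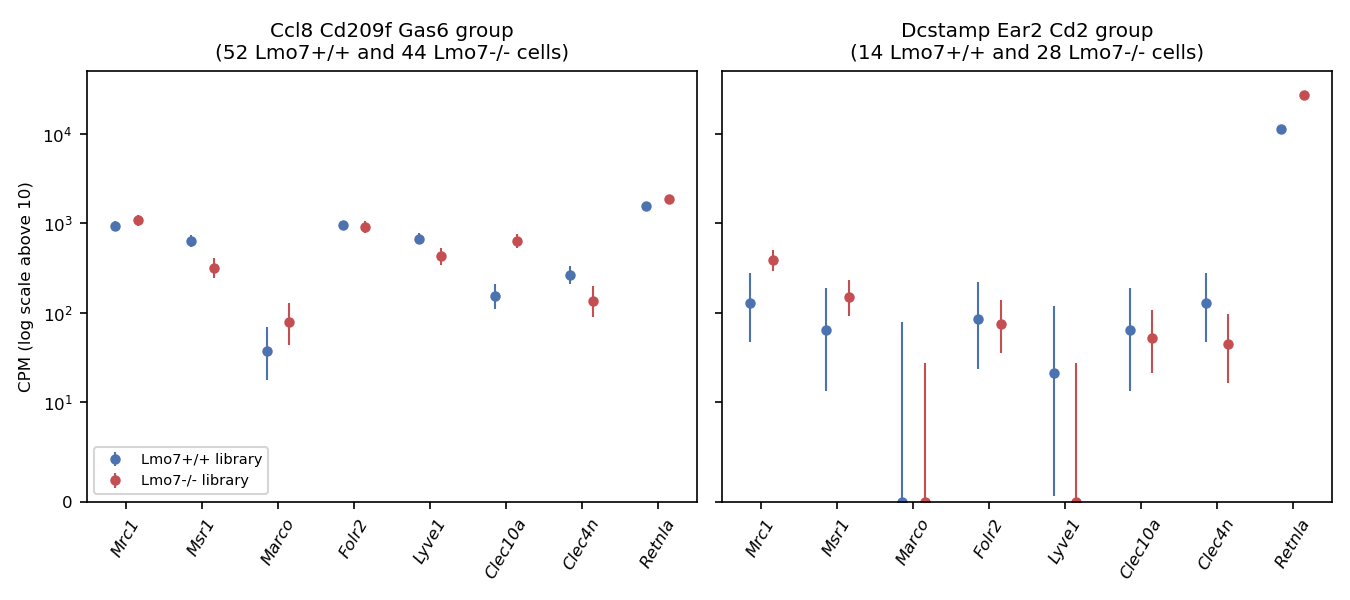
Level of each member in CPM (logarithmic above 10) in the groups into which a finer clustering split the Cd209f Cbr2 Fcna state, with 1 point per library and exact 95% Poisson intervals. Lyve1 and Marco had 1 count between them in the Dcstamp Ear2 Cd2 group, where Retnla stood at 11262 and 27304 CPM.

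Most cells with Lyve1 also held Mrc1 and Folr2. Among thinned cells of the state with a Lyve1 UMI, 12 of 14 in the Lmo7+/+ sample and 11 of 13 in the Lmo7-/- sample also held Mrc1, and 11 of 14 and 11 of 13 held Folr2. Among those with a Retnla UMI, 6 of 16 and 4 of 29 held Lyve1, beside 14 of 58 and 13 of 64 of all thinned cells of the state. At least 3 of the 5 members Mrc1, Folr2, Lyve1, Clec10a and Retnla were found in 17 of 58 and 20 of 64 cells of the state, against 0 of 3889 and 1 of 4213 cells of the other myeloid states. All 5 had their highest level in this state in the same data, so this contrast was largely set in advance and is a description only.

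The genes whose levels ran most like each member were ranked by Pearson correlation of log2(CPM + 1) over 16 points, the 8 states of both libraries, which share the clustering and 2 libraries and are not independent. Mrc1 ran with Selenop (r = 0.96), Gas6 and Tns1, Folr2 with Rnf150 (r = 0.93), Fcna and Rab11fip5, Lyve1 with Cd209f (r = 0.98), Cbr2 and Stard8, and Marco with Tns1 (r = 0.92), Adam15 and Idh1. Retnla ran with Epb41l1 (r = 0.94), Cd209f and Ccl9, and Clec10a with Iqgap2 (r = 0.95), Cxcl2 and Odc1. The correlation of Retnla with Cd209f is one of whole states and not of cells. The Dcstamp Ear2 Cd2 group, which carried most of the Retnla, had 0 Cd209f counts. The members that were not highest in the Cd209f state had other partners, Msr1 with Gpalpp1 (r = 0.89), Hyal1 and Nlrp3, and Clec4n with Pxdc1 (r = 0.92), Cxcr4 and Ccr1.

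Of 65 related genes in lists of scavenger receptors, C-type lectins, alternative activation, resident macrophages and cytokines, 57 had at least 20 counts in macrophage-like cells, and 13 were higher and 2 lower by 1.5-fold in the sample labelled Lmo7-/-. Over all 12004 genes tested in these cells, 3.92% were higher and 6.08% lower by that fold. Among alternative activation genes 6 of 14 were higher and none lower, with a median log2 ratio of 0.30 against -0.10 for all genes. The lists were chosen with earlier results of these data known, so these counts are a description only. Pdcd1lg2, the checkpoint ligand PD-L2, stood at 6.83 and 44.5 CPM (log2 ratio 2.70), the chemokine gene Ccl24 at 9.03 and 35.6 CPM (1.98) and Arg1, which encodes arginase, at 50.2 and 157 CPM (1.64). These were highest in the Arg1 Mmp12 Gpnmb state (Pdcd1lg2 and Arg1) and the Ly6c2 Chil3 state (Ccl24). In the Cd209f state that held Retnla, 7 of the 14 genes of the list were highest, Ccl22 and Cd200r1 among them, beside 16.1% of all 12004 genes. The genes of the list were not left out of the clustering. The other 3 past the fold, named after their values were seen, were Tgm2 (0.96), Cd200r1 (0.73) and Ccl22 (0.66). The value of Ccl22 rests on 20 and 33 counts, and its interval (-0.19 to 1.53) spanned 0. The transcription factor genes Klf4 (-0.27) and Stat6 (-0.11) and the cytokine gene Il10 (-0.24) were the lowest 3 of that list and within the fold. Within the Cd209f state alone, Arg1 (465 and 98.4 CPM) and Tgm2 (656 and 366 CPM) were instead lower in the sample labelled Lmo7-/-. Ccl24 was higher there (40.6 and 98.4 CPM). Ccl22 (8 and 3 counts), Cd200r1 (8 and 6) and Pdcd1lg2 (2 and 4) had few counts in the state.

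Among scavenger receptors 3 of 13 were higher and none lower (median 0.05); the 1 with fewer than 100 counts, Cd163, was at 1.36. Scarf1 (0.92) and Cd36 (0.69), which binds oxidized lipids, were past the fold, while Cxcl16 (0.15), Olr1 (0.01), Stab1 (-0.11) and Scarb1 (-0.41) were within it. Among C-type lectins 1 of 13, Cd209d (1.48), was higher and none lower (median 0.23), with Clec12a (0.55), Cd209f (0.54) and Clec4d (0.45) highest and Clec5a (0.03), Mgl2 (-0.01) and Clec4a2 (-0.02) lowest of those with at least 100 counts. Resident and perivascular genes were divided, with 2 higher and 2 lower of 9 (median -0.27). The chemokine gene Ccl8 was higher (181 and 406 CPM, log2 ratio 1.17), and the growth factor gene Igf1 was within the fold (0.55). Cd209g, which had fewer than 100 counts (10 and 17), was also past the fold at 0.70, with an interval (-0.51 to 1.99) that spanned 0. Gas6 (-0.70), a bridging protein for uptake of dying cells, and the ficolin gene Fcna (-0.65) were lower and F13a1 (-0.48) and Maf (-0.27) within the fold. All 9 of these genes were highest in the Cd209f state, beside 16.1% of all 12004 genes tested. They were not left out of the clustering and Fcna helps to define the state, so their place in it is no finding.

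**Figure D5:**
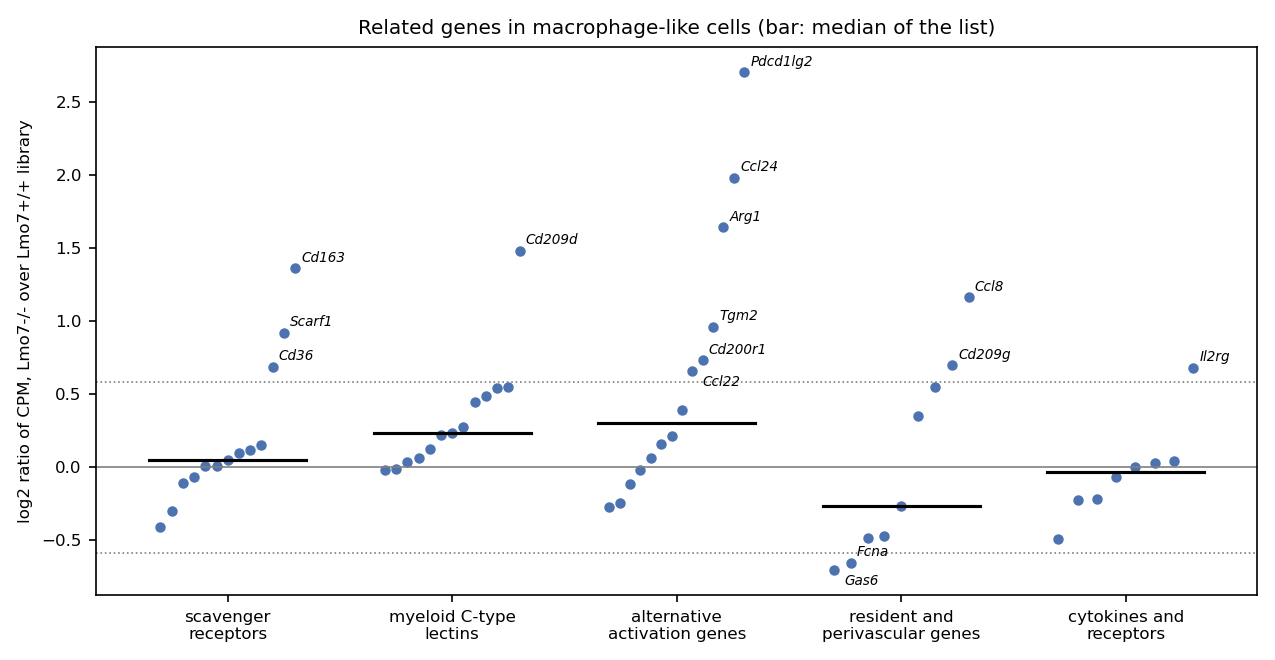
Log2 ratio of CPM, Lmo7-/- over Lmo7+/+ library, of the 57 related genes tested, plotted by list for macrophage-like cells, with 1 point per gene, a bar at the median of each list and dotted lines at 1.5-fold. Genes past the fold carry their names. Of 14 alternative activation genes 6 lay above it and none below, beside 3.92% and 6.08% of all 12004 genes tested. The lists were chosen with earlier results of these data known.

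The cytokines that induce the program had few counts. Il4 had 2 counts in each library over all kept cells, and Il13 had 14 and 27. All Il4 counts lay in mast-like cells (7 and 20 cells), where Il13 had 1 and 8 counts (34.1 and 146 CPM). The other Il13 counts lay in T and NK cells (2 and 7), monocyte-like cells (0 and 11) and unnamed cells (11 and 1). Of the receptor genes for these cytokines, Il4ra (165 and 169 CPM, log2 ratio 0.04) and Il13ra1 (44.3 and 38.1 CPM, -0.22) differed little in macrophage-like cells. Il2rg, the common gamma chain, stood at 163 and 261 CPM (0.68) and was the 1 gene of 8 in the cytokine and receptor list past the fold. Il10ra (0.03), Tgfb1 (-0.22) and Csf1 (-0.49), the growth factor gene of macrophages, were within it.

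Some member counts lay in cells that the markers did not name. An unnamed cluster of 1230 cells with a low median of 1950 UMIs, led by Mrc1 itself, held 470 Mrc1 counts (64.6 CPM), 1374 Msr1 counts (189 CPM) and 114 Retnla counts (15.7 CPM). Of the 104 Retnla counts in all unnamed cells of the Lmo7-/- sample, 91 came from 1 cell. Another unnamed cluster, of 46 cells led by immunoglobulin genes and Siglech, held 16 Clec10a counts (113 CPM) and none of Mrc1, Msr1, Marco, Folr2, Lyve1 or Retnla.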

How the data were processed

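Counts of UMIs per gene and droplet were deposited by the authors as 10x matrices, 1 per library (16208 and 15163 droplets). Per the labels the submitters' processing notes name Cell Ranger 2.1.1 and mm10, while the matrix header names software version 3.0.0; the study filtered cells without stated cutoffs and clustered with Louvain in Seurat. The deposited matrices, not the study's cell annotation, were used here. Cells with at least 500 genes, 1000 UMIs and at most 15% mitochondrial counts were kept, normalized to 10000 per cell and log-transformed. They were clustered on 2000 variable genes and 30 principal components with scikit-learn 1.9.0 (20 neighbors) and igraph 0.11.9 (Louvain resolution 0.5). Doublets were marked with Scrublet in scanpy 1.11.5 and kept. The 8 members were left out of the genes used for clustering. Clusters were named from marker lists, with naming thresholds set after the data were seen. Macrophage-like and monocyte-like cells were clustered again at resolution 0.5 into states, named from their leading genes by fold at 50 CPM or more or from marker lists of macrophage states.

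Counts were summed per library and class or state, scaled to CPM and given with exact 95% Poisson intervals; log2 ratios carry exact binomial intervals and shares exact Clopper-Pearson intervals. The floor for a count of 0 is 3 counts. UMIs remove PCR copies, but cells are not replicates, so no p-values are given. Ratios and thinning were tested on simulated data. Members and gene lists were chosen with earlier results of these data known. Named genes were the 8 members, Lmo7, the 3 highest and 3 lowest log2 ratios per related list with at least 100 counts, the cytokines, the 3 genes most like each member and leading genes of states; others (Prox1, C1qa, Fn1, genes leading the finer groups) were named after their values were seen. Of 66 listed related genes, Clec7a was not analysed here. Python 3.11.15, R 4.3.3 and edgeR 4.0.16 (for TMM scaling as an alternative) were used.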

Additional observations from a re-analysis of the deposited data

Results flagged for a closer look

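Some members had log2 ratios between the libraries (Lmo7-/- over Lmo7+/+) whose intervals lay on opposite sides of 0 in different cells. With 1 library per genotype the differences between these ratios were not tested. Mrc1 stood at 0.38 in monocyte-like and -0.084 in macrophage-like cells, and by state at 0.40 in Ly6c2 Chil3 and -0.18 in proliferating cells. Msr1 stood at 0.34 in the Ly6c2 Chil3 state and -1.15 in the Cd209f Cbr2 Fcna state. Clec4n stood at 0.13 in the Ly6c2 Chil3 state, against -0.30 in Arg1 Mmp12 Gpnmb, -0.84 in Cd300e Fcrl5 Xcr1 and -1.43 in Cd209f Cbr2 Fcna. The Mrc1 value in macrophage-like cells moved to 0.02 with TMM scaling.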

How the results depend on the processing

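No paired analysis was possible because each genotype had 1 library, and for the same reason no replicate could be left out. The number of members past 1.5-fold in macrophage-like cells was 2 under every other setting except the strict filter (3), and was 1 without the Cd209f state, which holds most Retnla and Lyve1 counts. In monocyte-like cells it was 0, and 1 (Retnla) with the strict filter (the cause was not tested). No monocyte-like class was found under the lenient filter, without marked doublets or at resolution 0.2, so these gave no value. The macrophage-like class held 8083, 8420 and 9616 cells under these settings, against 6641 in the main run. It held 2981 without cells carrying a marker of another type, so the settings compare different sets of cells. The number of members highest in the same state in both libraries was 7, with a range of 6 to 8, and the number of related genes past the fold was 15, with a range of 11 to 18. The ratio of Lyve1 reversed to 0.59 with the strict filter and 0.86 without cells carrying a marker of another type (the cause was not tested). Retnla stayed above 0 throughout, between 0.93 and 2.25 in macrophage-like cells and between 0.06 and 2.19 in the Cd209f state, where the lowest value came at resolution 1.2, at which that state lost its Dcstamp Ear2 Cd2 cells. With TMM scaling genes past the fold in macrophage-like cells went from 471 higher and 730 lower to 654 and 507. Marco moved between -1.58 and 2.19, and few counts of Marco, Lyve1 and Folr2 limit what can be said of them outside the Cd209f state. In the Cd209f state the ratio of Clec4n ranged from -1.51 to -0.28 and fell within 1.5-fold after thinning and at resolution 1.2.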

Other observations

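Mrc1 was also counted in endothelial-like cells, with 1 count in the Lmo7+/+ sample and 14 in the Lmo7-/- sample, of which 11 lay in the 2 cells with lymphatic markers. Other genes of the related lists with fewer than 100 counts, named after their values were seen, had many or nearly all of their counts in the Cd209f state: Cd163, a receptor for haptoglobin and hemoglobin, with 10 of 16 (Lmo7+/+) and 42 of 43 (Lmo7-/-) of its macrophage-like counts there, and Cd209d, a C-type lectin, with 13 of 13 and 37 of 38. Both are among the leading genes of the state and were not left out of the clustering, so their place in it is no finding. Vsig4, a complement receptor of resident macrophages, had 14 counts in the state in the Lmo7+/+ sample and 1 in the Lmo7-/- sample. Neutrophil markers in the S100a9 S100a8 H19 state summed to 800 CPM in the Lmo7+/+ sample and 53.2 CPM in the Lmo7-/- sample, and 3.71% of its cells were marked as doublets. S100a9 and S100a8, which help to name this state, had no count in its Lmo7-/- cells.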
